A study of Rattus norvegicus with 20 samples.

Results

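The genes described here are 9 that mark the early part of the oligodendrocyte lineage: Pdgfra, Olig1, Olig2, Sox10, Nkx2-2, Gpr17, Myrf, Bcas1 and Enpp6. They were chosen by name from the 30443 genes of the deposited expression table, by a rule that sets no threshold on their values, and each had its own entry. All 9 reached 1 FPKM (sequenced fragments scaled to transcript length and to the fragments mapped in the library, so that levels can be compared between genes) in at least 1 library and so stand among the 15210 genes tested. Expression was measured by sequencing of total RNA in 20 libraries, 1 from each of 5 regions in each of 4 rats.

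Every animal was a wild-type adult female Long-Evans rat, 6 to 8 months old and weighing 275 to 350 g, with a unilateral contusion of the spinal cord at cervical level 4 that displaced the tissue by 0.7 mm. Every animal also carried an electrode array in the motor cortex, implanted 2 weeks after the injury, so no uninjured or unimplanted animal was measured. The 2 stimulated animals received current for 1 week at 10 Hz, for 5 hours a day in periods of 5 min on and 2 min off, at 80% of the current that evoked movement. In the 2 control animals the array was present but this week of stimulation was not given. A test of the electrodes with current pulses, to find the movement threshold, was listed for control and stimulated animals alike, 1 week after implantation. Region 1 was a block of about 5 mm3 of subcortical white matter beneath the implant, and region 2 was its counterpart in the opposite hemisphere. Regions 3, 4 and 5 were spinal cord rostral to the lesion, at the lesion and caudal to it. The controls therefore shared the injury, the implant and the surgery with the stimulated animals, and 2 animals a group is the limit on every comparison of stimulation.

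Oligodendrocyte progenitors divide and migrate under the control of platelet-derived growth factor, which they sense through the receptor encoded by Pdgfra. As they commit to differentiation they lose this receptor, pass through a premyelinating stage in which Gpr17, Bcas1 and Enpp6 are used, and then switch on the genes of the myelin sheath. Olig1, Olig2, Sox10 and Nkx2-2 encode transcription factors that specify and maintain the lineage, and Myrf encodes the factor that drives the myelin genes themselves. After injury of the central nervous system, adult progenitors are a source of new oligodendrocytes. None of the 9 genes belongs to 1 cell type only: Pdgfra is also used by fibroblasts, Sox10 by Schwann cells, and Olig1, Olig2, Sox10, Myrf and Bcas1 by mature oligodendrocytes too.

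The tissue labels were checked against marker genes. The libraries of regions 1 and 2 held 225 to 329 FPKM of Slc17a7, the vesicular glutamate transporter of cortical projection neurons, whereas the 12 cord libraries held at most 11.8 FPKM. Myelin basic protein (Mbp), among the most abundant messages of white matter, reached 385 to 1484 FPKM in regions 1 and 2 and 3836 to 5813 FPKM in the cord. The blocks labelled subcortical white matter thus held myelin genes at levels far below those of the cord, together with a large amount of a cortical neuron message. Summed FPKM per library ranged from 191481 to 290718 over the 30443 genes. Read depth cannot be recovered from these values, so the counting error behind a single value is unknown.

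Promoter sequences were matched for 5 of the 9 genes in RefSeq (assembly GRCr8). Those of Pdgfra and Enpp6, a marker of progenitors and a marker of newly forming oligodendrocytes, are shown because these genes stood at opposite ends of the differences between regions described below. Each runs 5′ to 3′ over the 250 bases before the annotated start, on the minus strand, chr14:33408517-33408766 for Pdgfra and chr16:52026729-52026978 for Enpp6. Capitals mark a match to ACAAAG, letters bound by SOX proteins, searched on both strands.
Pdgfra: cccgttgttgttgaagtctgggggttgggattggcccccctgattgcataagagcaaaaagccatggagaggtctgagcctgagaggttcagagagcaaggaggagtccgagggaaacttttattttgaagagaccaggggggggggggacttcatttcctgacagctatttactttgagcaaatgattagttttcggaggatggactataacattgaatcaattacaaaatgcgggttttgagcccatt
Enpp6: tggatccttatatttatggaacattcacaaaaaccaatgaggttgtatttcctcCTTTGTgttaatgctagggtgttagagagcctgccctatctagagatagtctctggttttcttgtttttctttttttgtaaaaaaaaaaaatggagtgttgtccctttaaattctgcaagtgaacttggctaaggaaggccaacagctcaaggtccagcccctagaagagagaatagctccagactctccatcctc
The match in Enpp6 began 196 bases before the start, and no other match to ACAAAG was found in the 5 windows. These letters stood in 16.3% of the 33469 promoters of the same length. The E-box CAGCTG, a palindrome of the kind bound by OLIG proteins, was in 12.0% of the promoters and in none of the 5 windows. G and C made up 47.2% of the Pdgfra window and 40.0% of the Enpp6 window against a median of 51.2% over all promoters.

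Levels of the 9 genes covered a wide range. Bcas1, which encodes a protein of early myelinating cells, was the most abundant in every region, with a mean of 42.4 ± 15.7 FPKM (SD, n = 8 libraries) in white matter and 200.4 ± 19.0 FPKM (SD, n = 12 libraries) in the cord, above 93.7% and 99.2% of the genes tested. Nkx2-2 was the least abundant, with 1.23 ± 0.474 FPKM in white matter and 4.33 ± 0.767 FPKM in the cord. Olig1 came next after Bcas1 in all 5 regions. The order of the other genes differed between the tissues: Gpr17 and then Pdgfra followed Olig1 in white matter, and Enpp6 and then Sox10 followed it in the cord. In the cord the spreads of Pdgfra (13.5 ± 2.00 FPKM) and Olig2 (11.6 ± 0.961 FPKM) overlapped. So did those of Sox10 (19.8 ± 2.19 FPKM), Gpr17 (18.2 ± 2.79 FPKM) and Enpp6 (23.3 ± 6.83 FPKM). These spreads leave out that the genes were measured in the same libraries. Pdgfra was above Olig2 in every cord library, with a mean log2 ratio of 0.21 (SD 0.14). The mean log2 ratio in the cord was 0.13 (SD 0.13) for Sox10 to Gpr17. It was -0.19 (SD 0.31) for Sox10 to Enpp6 and -0.32 (SD 0.25) for Gpr17 to Enpp6.

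**Figure D1:**
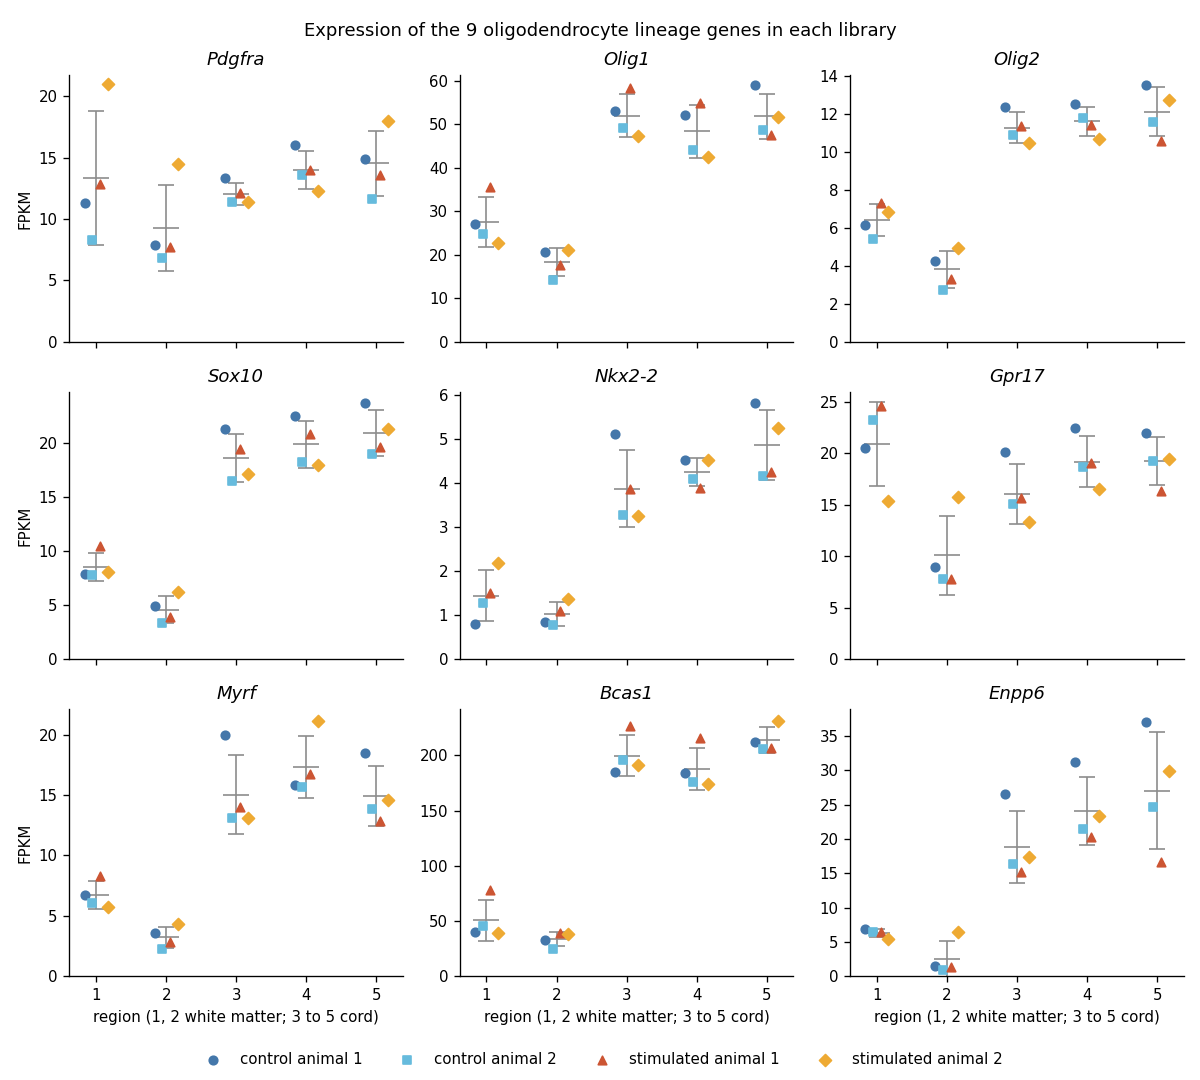
FPKM (y axis, linear, from 0) of each of the 9 genes in the 20 libraries, by region (x axis), with 1 symbol for each animal and grey bars for the mean ± SD of the 4 libraries of a region. For 7 genes every white matter library (regions 1 and 2) lies below every cord library, while Pdgfra and Gpr17 overlap between the tissues. In region 2, stimulated animal 2 stands highest for every gene but Bcas1, and far above the other animals for Pdgfra, Gpr17 and Enpp6.

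All 9 genes were lower in the blocks labelled subcortical white matter, called white matter here, than in spinal cord, but by very different amounts. Enpp6, a phosphodiesterase gene of newly forming oligodendrocytes, was 6.52-fold lower and Bcas1 4.95-fold lower, whereas Pdgfra and Gpr17 were only 1.27-fold and 1.28-fold lower. The transcription factors lay between these ends. In the 12 cord libraries Enpp6 ranged from 15.1 to 37.0 FPKM with a median of 22.5 FPKM. Its 4 values were 6.90, 6.41, 6.47 and 5.51 FPKM in region 1 and 1.47, 0.934, 1.40 and 6.54 FPKM in region 2, for control animals 1 and 2 and stimulated animals 1 and 2 in that order. No white matter library reached the lowest cord library, and in region 2 stimulated animal 2 stood well above the other three.

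For Pdgfra the tissues overlapped. It measured 11.3, 8.27, 12.9 and 21.0 FPKM in region 1 and 7.91, 6.85, 7.76 and 14.5 FPKM in region 2, in the same order of animals, against 11.4 to 17.9 FPKM in the cord. Stimulated animal 2 held the highest white matter value in both hemispheres, and its region 1 value exceeded every cord library. Gpr17, an orphan receptor of the premyelinating stage, measured 20.6, 23.2, 24.6 and 15.3 FPKM in region 1, which is in or above the cord range of 13.4 to 22.5 FPKM, and 8.96, 7.82, 7.83 and 15.8 FPKM in region 2, where 3 of the 4 libraries lay below that range.

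By limma on log2 FPKM with Benjamini-Hochberg adjustment over all 15210 genes, all 9 genes were called lower in white matter, beside 47.1% of all genes tested, and the median log2 difference of the 9 was -1.68 beside -0.18 for all genes. For 7 of the 9, every white matter library was below every cord library, which was so for 16.8% of all genes. The log2 differences were -2.71 for Enpp6 (SE 0.26, adjusted p = 2.25e-08), -2.31 for Bcas1 (SE 0.11, adjusted p = 9.44e-13), -1.88 for Nkx2-2 (SE 0.16, adjusted p = 2.36e-09), -1.76 for Myrf (SE 0.12, adjusted p = 1.07e-10) and -1.68 for Sox10 (SE 0.10, adjusted p = 1.6e-11). The sister factors Olig2 and Olig1, which are neighbours on the chromosome, fell less, by 1.25 (SE 0.09) and 1.18 (SE 0.09) on the log2 scale. This fit held no term for the animal, although regions 1 and 2 of the same animal varied together. Its SEs and p-values therefore count libraries rather than animals and do not measure the spread between animals. The same holds for the other limma comparisons of regions given here, except where the animal is named as a block. For Gpr17 (-0.35, SE 0.13, adjusted p = 0.0188) and Pdgfra (-0.34, SE 0.15, adjusted p = 0.049) the calls were not stable. The Pdgfra call was lost in 8 of 13 alternative analyses, with adjusted p-values up to 0.29, among them those without control animal 1, control animal 2 or stimulated animal 1. The Gpr17 call was lost in 3 of 13, those without the same 3 animals, with adjusted p-values up to 0.18. The size of the Pdgfra difference also depended on single animals: it was -0.58 without stimulated animal 2 (adjusted p = 8.29e-05) and -0.23 without control animal 2 (adjusted p = 0.228). For Gpr17 it ranged from -0.25 to -0.47 over the same alternatives. In bulk tissue, fewer cells of a type and less RNA per cell cannot be told apart, and this holds for each difference given here.

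**Figure D2:**
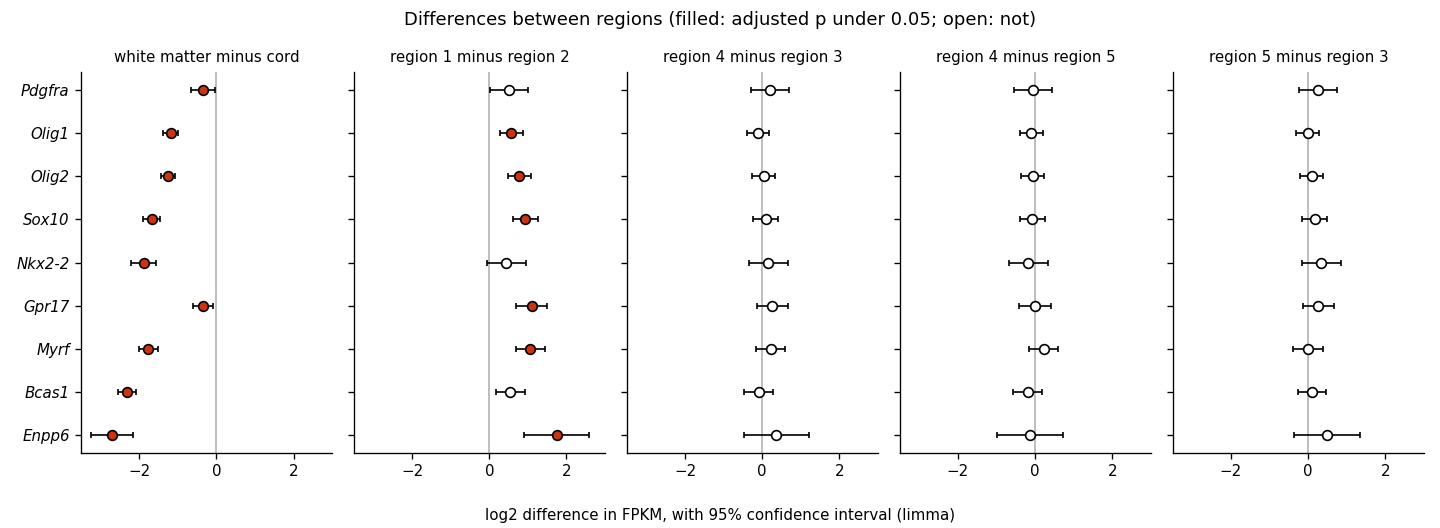
Log2 difference in FPKM (x axis) of each gene (y axis) between regions, with 95% confidence intervals from limma, filled where the adjusted p was under 0.05. The intervals treat the libraries of an animal as independent. All 9 genes are filled to the left of 0 for white matter minus cord, 6 are filled to the right for region 1 minus region 2, and the 3 comparisons within the cord hold open symbols around 0.

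Ratios between the genes within a library, which do not depend on the scaling of that library, also differed between the tissues. The ratio of Pdgfra to Enpp6 was 5.14-fold higher in white matter than in the cord and that of Pdgfra to Bcas1 3.90-fold higher. Gpr17 behaved as Pdgfra did in this respect, with ratios to Enpp6 and Bcas1 that were 5.12-fold and 3.88-fold higher, and all 4 passed a 2-sided exact permutation test of region labels within the 4 animals (adjusted p = 0.000157, from 1e-04, the smallest p that the 10000 arrangements can give). Of all 36 pairs, 30 passed, with adjusted p-values up to 0.0208 over the 36. The test treats the 5 regions of an animal as exchangeable, although regions 1 and 2 of the same animal varied together. Its p-values therefore count libraries rather than the 4 animals and do not measure the spread between animals. Among the 6 that did not pass were Pdgfra with Gpr17 (log2 ratio higher by 0.01 in white matter, adjusted p = 0.969, permutation) and Olig1 with Olig2 (higher by 0.07, adjusted p = 0.306, permutation). The other pairs that did not pass joined Sox10 with Nkx2-2, Sox10 with Myrf, Nkx2-2 with Myrf, and Bcas1 with Enpp6. In words, the ratios of Pdgfra and of Gpr17 to each transcription factor and to Bcas1 and Enpp6 were higher in white matter than in cord, and so were the ratios of each factor to Bcas1 and Enpp6.

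The levels were also set against those of the myelin genes. The mean log2 FPKM of 15 mature oligodendrocyte and myelin genes was 2.02 units lower in white matter than in the cord (difference -2.02), and all 15 were called lower, with a median log2 difference of -2.16. Relative to that mean, Pdgfra was 1.68 and Gpr17 1.67 log2 units higher in white matter, Olig1 0.83 and Olig2 0.77 units higher, and Sox10, Myrf and Nkx2-2 0.34, 0.26 and 0.14 units higher. Bcas1 (-0.29) and Enpp6 (-0.69) were lower relative to the myelin genes. These relative levels are a description with no test.

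**Figure D3:**
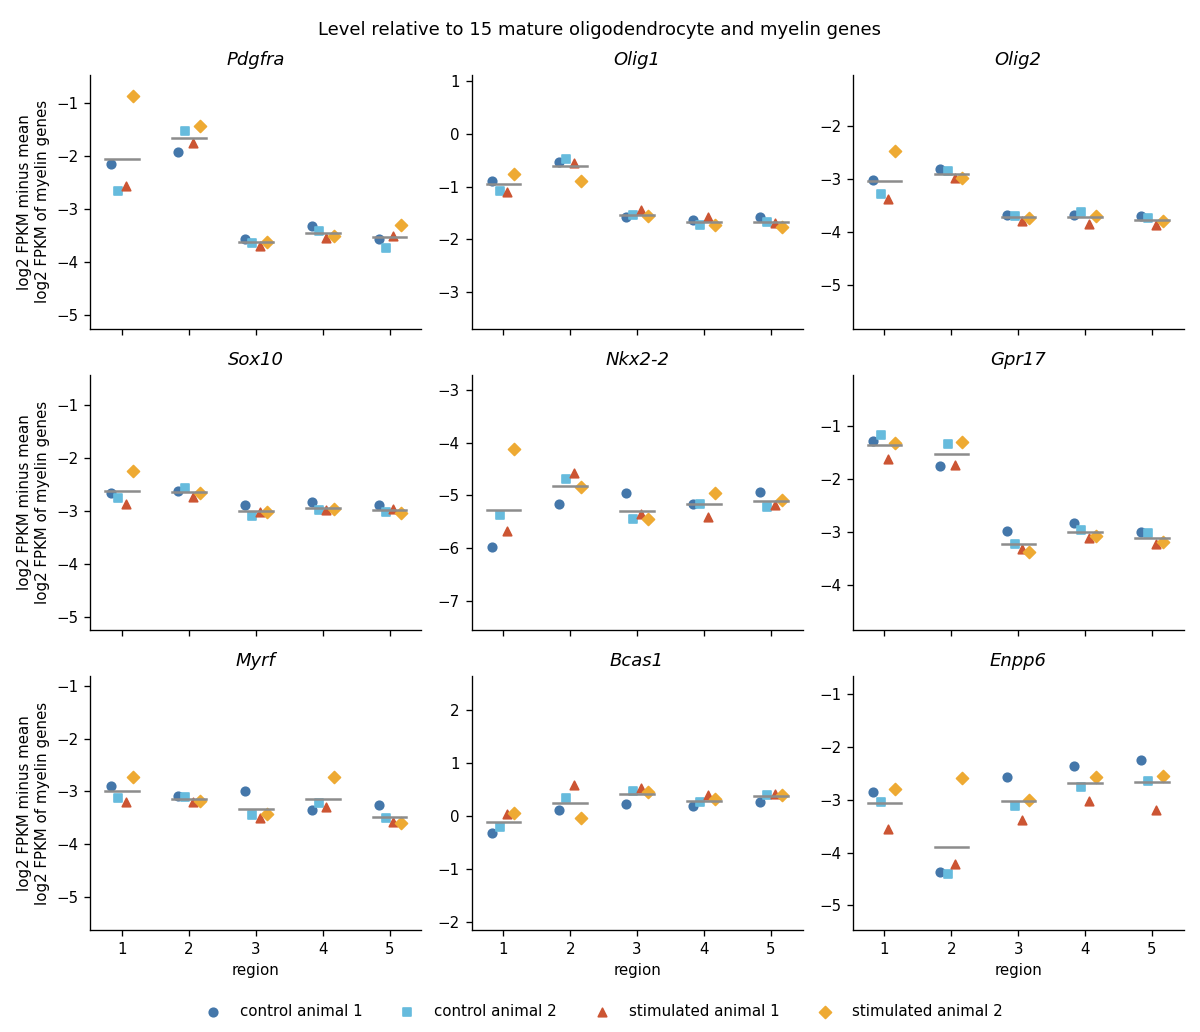
Log2 FPKM of each gene minus the mean log2 FPKM of 15 myelin genes in the same library (y axis, each panel spanning the same number of log2 units) by region (x axis), with grey lines for the mean of 4 libraries. Pdgfra and Gpr17 stand 1.68 and 1.67 log2 units higher in regions 1 and 2 than in the cord, and Enpp6 is lowest in 3 of the 4 libraries of region 2.

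Other genes of the lineage were called in both directions between white matter and cord, as were all genes tested, of which 3808 of 15210 were higher and 7169 (47.1%) lower in white matter. Of 19 other progenitor genes tested, 6 were higher and 11 lower in white matter, with a median log2 difference of -0.28: Sox5, a SOX factor that restrains oligodendrocyte differentiation (1.49), was the highest, and Susd5 (-1.93) and C1ql1, a secreted protein of progenitors (-1.82), the lowest. Of 12 other premyelinating genes 10 were lower, led by Zfp488, a zinc finger cofactor of Olig2 (-1.88), and Tmem163, a zinc transporter (-1.15), and 1 was higher, the small GTPase gene Rras2 (0.35). Among 15 other regulators 5 were higher and 8 lower. The Notch effectors Hes5 (2.06) and Hes1 (1.09) were the highest of these, and the ventral patterning factors Nkx6-1 (-3.13) and Nkx6-2 (-2.17) the lowest. The ligands of the Pdgfra receptor and its relatives were mixed: Pdgfc (0.72) and Pdgfb (0.42) were higher, Pdgfd (-1.60) and Pdgfa (-0.47) lower, and the related receptor Pdgfrb did not pass (0.03, adjusted p = 0.835).

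Markers of other cells that use the same genes also differed between the tissues. Of 9 fibroblast and meningeal markers 7 were lower in white matter, with Dcn at -1.93 (adjusted p = 7.9e-06) and Col1a1 at -0.75 (adjusted p = 0.0673). Of 9 Schwann cell markers 6 were lower and 2 higher, and Prx, a protein of myelinating Schwann cells, was at no more than 0.344 FPKM in white matter (log2 difference -4.13, adjusted p = 1.48e-11). Of the other lists, 7 of 10 microglia and macrophage markers, 8 of 10 astrocyte markers, 6 of 8 pericyte and endothelial markers and 6 of 10 proliferation markers were lower, and 6 of 10 neuron markers were higher. Their part in the differences of the 9 genes was not tested.

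The next question was whether the 2 hemispheres differed. Region 1 lay beneath the electrode array and also in the hemisphere opposite the injured side of the cord. Implant and side of injury therefore cannot be told apart in this comparison. Of the 9 genes, 6 were higher in region 1 than in region 2: Enpp6 3.35-fold, Gpr17 2.14-fold, Myrf 2.09-fold, Sox10 1.90-fold, Olig2 1.71-fold and Olig1 1.49-fold. Pdgfra, Bcas1 and Nkx2-2 were not called. The region 1 means were 6.32 ± 0.584 FPKM for Enpp6, 20.9 ± 4.09 FPKM for Gpr17, 6.71 ± 1.15 FPKM for Myrf and 8.55 ± 1.28 FPKM for Sox10 (SD, n = 4). In region 2 the same genes had means of 2.59 ± 2.65, 10.1 ± 3.83, 3.26 ± 0.871 and 4.59 ± 1.26 FPKM (SD, n = 4). Control and stimulated animals both enter this comparison.

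In the limma fit the log2 differences were 1.74 for Enpp6 (SE 0.40, adjusted p = 0.0149), 1.10 for Gpr17 (SE 0.20, adjusted p = 0.00407), 1.07 for Myrf (SE 0.18, adjusted p = 0.003), 0.93 for Sox10 (SE 0.15, adjusted p = 0.00284), 0.78 for Olig2 (SE 0.14, adjusted p = 0.00438) and 0.57 for Olig1 (SE 0.14, adjusted p = 0.0184). Of all genes tested 6.86% were called higher in region 1. The uncalled genes had differences of 0.55 for Bcas1 (95% interval 0.18 to 0.91, adjusted p = 0.0571), 0.51 for Pdgfra (0.02 to 1.00, adjusted p = 0.18) and 0.44 for Nkx2-2 (-0.07 to 0.94, adjusted p = 0.274), so a difference as large as that of Olig1 is within each interval. With the animal as a block, Bcas1 passed too (adjusted p = 0.0263) and the count was 7. For 5 genes, Olig1, Olig2, Sox10, Myrf and Bcas1, every region 1 library was above every region 2 library, which was so for 4.4% of all genes.

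Stimulated animal 2 stood apart in this comparison. For Enpp6 region 1 exceeded region 2 by 4.68-fold and 6.86-fold in the control animals and by 4.62-fold in stimulated animal 1, but in stimulated animal 2 the ratio was 0.842. Gpr17 showed the same, with ratios of 2.30, 2.97 and 3.15 and then 0.972. Sox10 (1.62, 2.34, 2.67 and 1.30), Olig2 (1.44, 1.96, 2.2 and 1.38) and Olig1 (1.30, 1.74, 2.02 and 1.07) were higher in region 1 in all 4 animals, with the smallest ratio in stimulated animal 2. Pdgfra was also higher in region 1 in each animal (1.43, 1.21, 1.66 and 1.45), and stimulated animal 2 did not stand apart there. The number of the 9 genes called was 8 without stimulated animal 2, and also 8 without its region 2 library alone, but 3 without control animal 1, 2 without control animal 2 and 0 without stimulated animal 1, so the count depended on which animals entered.

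**Figure D4:**
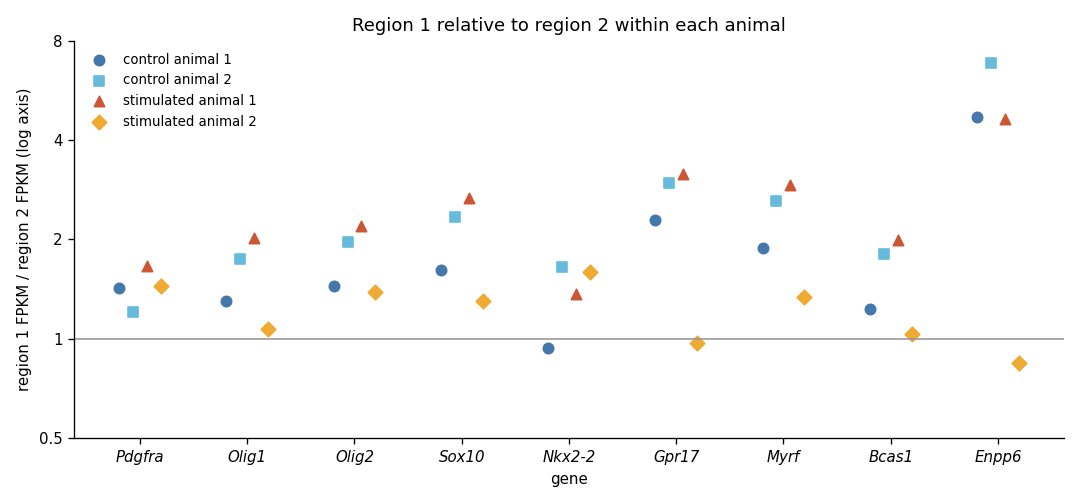
Ratio of region 1 FPKM to region 2 FPKM within each animal (y axis, log axis) for each of the 9 genes (x axis), with the line at 1 marking equal levels. For Enpp6 3 animals lie between 4.62 and 6.86 while stimulated animal 2 lies at 0.842, and the same animal is near 1 for Gpr17 (0.972), Bcas1 and Olig1.

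Markers of other cell types also stood apart in the same libraries. The summed level of 10 microglia and macrophage markers in region 2 was 353 FPKM in stimulated animal 2 and 65.8 to 79.6 FPKM in the other animals, and in region 1 it was 673 FPKM against 161 to 244 FPKM. The 10 fibroblast and meningeal markers summed to 59.4 FPKM in its region 2 library against 14.0 to 18.2 FPKM, and to 184 FPKM against 41.5 to 66.2 FPKM in region 1, where its Col1a1 was 38.9 FPKM against 7.98 to 12.8 FPKM. The 10 astrocyte markers summed to 1699 FPKM in its region 2 library against 887 to 1099 FPKM in the others, and Gfap, the intermediate filament of astrocytes, named here after its values were seen, was at 678 FPKM against 70.1 to 91.4 FPKM. In region 1 its astrocyte sum of 1711 FPKM lay within the 1378 to 1789 FPKM of the other animals. The 10 neuron markers summed to 1082 FPKM in its region 1 library and to 1486 to 1631 FPKM in the other 3. In region 2 its neuron sum was closer to the others, at 1515 FPKM against 1579 to 1887 FPKM. Summed myelin genes were 1757 FPKM in region 1 and 1631 FPKM in region 2 of this animal, while the other animals held 2032 to 3408 FPKM and 820 to 1252 FPKM. The part of these differences in the levels of the 9 genes was not tested.

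Between the hemispheres, other genes of the lineage called were all higher in region 1, beside 6.86% of all genes called higher and 1.76% lower. They were 7 of 19 other progenitor genes (median log2 difference 0.31), among them Vcan, a chondroitin sulphate proteoglycan of progenitors (1.30), and C1ql1 (0.78), and 6 of 12 other premyelinating genes (median 0.62), among them Bmp4, a secreted signal (1.02), and Tcf7l2, a transcription factor of differentiating cells (0.93). Of 15 other regulators 5 were higher, among them the chromatin remodeller Chd7 (0.94) and Nkx6-2 (0.74). Pdgfc (0.78) and Pdgfrb (0.63) were higher among the 5 PDGF genes. Of the 15 mature myelin genes 11 were higher in region 1 as well, with a median of 0.84, while the median over all genes was 0.06.

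Relative to the mean of the myelin genes, which was 0.91 log2 units higher in region 1, the 9 genes differed in both directions. Sox10 (0.02), Olig2 (-0.13), Myrf (0.16) and Gpr17 (0.19) were near that mean, Olig1 (-0.33), Bcas1 (-0.36), Pdgfra (-0.40) and Nkx2-2 (-0.47) were lower relative to it, and Enpp6 (0.83) was higher. Among other cell types, 6 of 9 fibroblast and meningeal markers, with Col1a1 at 2.67 and Dcn at 1.66, 4 of 9 Schwann cell markers, 3 of 10 astrocyte markers, 2 of 10 microglia and macrophage markers and 2 of 8 pericyte and endothelial markers were called higher in region 1. Of 10 neuron markers 1 was higher and 2 lower, and of 10 proliferation markers none was called. The Schwann cell marker Prx was at most 0.344 FPKM in region 1.

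Within the spinal cord the 9 genes showed no called difference, either between the lesion and the rostral cord, between the lesion and the caudal cord, or between caudal and rostral cord. Enpp6 had means of 18.9 ± 5.23 FPKM rostral to the lesion, 24.1 ± 4.90 FPKM at the lesion and 27.1 ± 8.57 FPKM caudal to it (SD, n = 4), and its values in single libraries overlapped between the 3 regions. Pdgfra had means of 12.0 ± 0.910, 14.0 ± 1.55 and 14.5 ± 2.64 FPKM and Gpr17 of 16.1 ± 2.88, 19.2 ± 2.45 and 19.3 ± 2.30 FPKM in the same order. Bcas1 had 199.8 ± 18.5, 187 ± 19.1 and 214 ± 11.8 FPKM. For each of the 9 genes the libraries of these regions overlapped.

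By limma 0 of the 9 were called in each of the 3 comparisons and 0 had an unadjusted p under 0.05, beside 19.6% of all genes called between lesion and rostral cord (34.7% at an unadjusted p under 0.05), 7.99% between lesion and caudal cord (29.0%) and 4.32% between caudal and rostral cord (24.7%). The log2 differences ran from -0.11 to 0.37, from -0.20 to 0.22 and from -0.00 to 0.50. The widest 95% interval was that of Enpp6, ±0.85 log2 units, so its difference between lesion and rostral cord could lie anywhere from -0.48 to 1.22. The same interval for Olig2 ran from -0.26 to 0.34 and that for Sox10 from -0.23 to 0.42. The count was 0 of 9 in each of the 13 alternative analyses of each comparison.

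Related genes were called at the lesion, in a comparison in which 6.78% of all genes were called higher and 12.8% lower than in the rostral cord. Compared with the rostral cord, 3 of 19 other progenitor genes were higher, among them Matn4, an extracellular matrix protein (0.78, adjusted p = 0.0464), and Cspg4, the NG2 proteoglycan that progenitors share with pericytes (0.71, adjusted p = 0.0072). Of 12 other premyelinating genes 3 were higher, among them Tcf7l2 (0.67) and Rras2 (0.57), and Tmem163 was lower (-0.48). Among regulators Zeb2 was higher (0.36) and Hes5 lower (-0.84, adjusted p = 0.00415), and Pdgfb was the 1 gene called among the 5 PDGF genes (0.67, adjusted p = 0.0255). Caudal against rostral cord, Pdgfd was higher (0.61, adjusted p = 0.00584) and none of the other progenitor, premyelinating or regulator genes was called, nor was any between lesion and caudal cord. No myelin gene of the 15 was called in these 3 comparisons.

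Compared within each animal, 7 of the 9 genes differed in the same direction between lesion and rostral cord in all 4 animals, as did 50.7% of all genes tested; these directions were counted after the values had been seen and are a description with no test. The lesion level over the rostral level of Pdgfra was 1.21 and 1.19 in the control animals and 1.15 and 1.08 in the stimulated animals. Gpr17 (1.12 to 1.24), Enpp6 (1.17 to 1.35), Sox10 (1.04 to 1.11) and Olig2 (1.00 to 1.08) also had the higher level at the lesion in each animal, Olig1 (0.895 to 0.984) and Bcas1 (0.897 to 0.996) the lower, and Nkx2-2 and Myrf varied in sign. The same count was 5 of 9 between caudal and rostral cord, against 40.4% of all genes, and 1 of 9 between lesion and caudal cord, against 33.8%. With the animal as a block, 0 of 9 were called in each of these comparisons.

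Markers of other cell types were called in the cord, beside the shares of all genes given above for the same comparisons. At the lesion 5 of 10 microglia and macrophage markers, 6 of 9 Schwann cell markers, with Prx at 1.32 (adjusted p = 0.0209), 3 of 10 proliferation markers and 1 of 8 pericyte and endothelial markers were higher than in the rostral cord, and 7 of 10 neuron markers and 1 of 10 astrocyte markers were lower. Caudal against rostral, 7 of 9 Schwann cell markers and 1 of 9 fibroblast and meningeal markers were higher, and 2 of 10 neuron markers were higher and 3 lower. Between lesion and caudal cord, 4 of 10 neuron markers, 1 Schwann cell marker and 1 astrocyte marker were lower at the lesion. Their part in the levels of the 9 genes was not tested.

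The comparison for which the study was designed is that of stimulated with control animals. No member of the 9 was called in any region. Beneath the electrode, Pdgfra measured 11.3 and 8.27 FPKM in the control animals and 12.9 and 21.0 FPKM in the stimulated ones, and Nkx2-2 measured 0.793 and 1.28 FPKM against 1.5 and 2.19 FPKM. Both stimulated libraries stood above both controls for these genes and for Olig2 (6.16 and 5.38 against 7.28 and 6.83 FPKM) and Sox10 (7.91 and 7.78 against 10.5 and 8.06 FPKM). In region 1, 4 of the 9 genes had this pattern, beside 21.2% of all genes. The higher Pdgfra and Nkx2-2 values both came from stimulated animal 2, the animal with the raised fibroblast and microglia markers described above. The part of those markers in these values was not tested.

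In region 2, Bcas1 (32.8 and 25.05 against 39.3 and 38.4 FPKM) and Nkx2-2 (0.848 and 0.775 against 1.10 and 1.37 FPKM) were above the controls in both stimulated animals, as were 20.2% of all genes. Enpp6 had the largest mean difference there, yet its stimulated values of 1.40 and 6.54 FPKM lay on both sides of the control value of 1.47 FPKM. In the cord, Myrf at the lesion was higher in both stimulated animals (15.8 and 15.7 against 16.7 and 21.1 FPKM, a pattern of 12.5% of genes) and Olig2 lower (12.5 and 11.8 against 11.4 and 10.7 FPKM, a pattern of 7.69% of genes). In regions 3 and 5 the groups overlapped for all 9 genes.

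By limma 0 of the 9 genes passed in every region and 0 had an unadjusted p under 0.05, a threshold reached by 5.44%, 1.41%, 3.43%, 2.24% and 3.59% of all genes in regions 1 to 5. Of all 15210 genes 0 were called in regions 1 to 4 and 3 in region 5, that is 0.0197%. The log2 differences in region 1 were 0.85 for Nkx2-2 (SE 0.36, adjusted p = 0.712), 0.77 for Pdgfra (SE 0.32, adjusted p = 0.712), 0.29 for Olig2 (SE 0.14, adjusted p = 0.712) and 0.23 for Sox10 (SE 0.17, adjusted p = 0.715). For Pdgfra the 95% interval ran from -0.13 to 1.66, an interval that holds both 0 and a difference of 1.66. Enpp6 in region 2 differed by 1.37 (SE 0.89, adjusted p = 0.949), with an interval from -1.23 to 3.96. In the cord the differences of the 9 lay between -0.44 and 0.26. An exact permutation test of 2 against 2 animals cannot give a 2-sided p below 0.333.

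**Figure D5:**
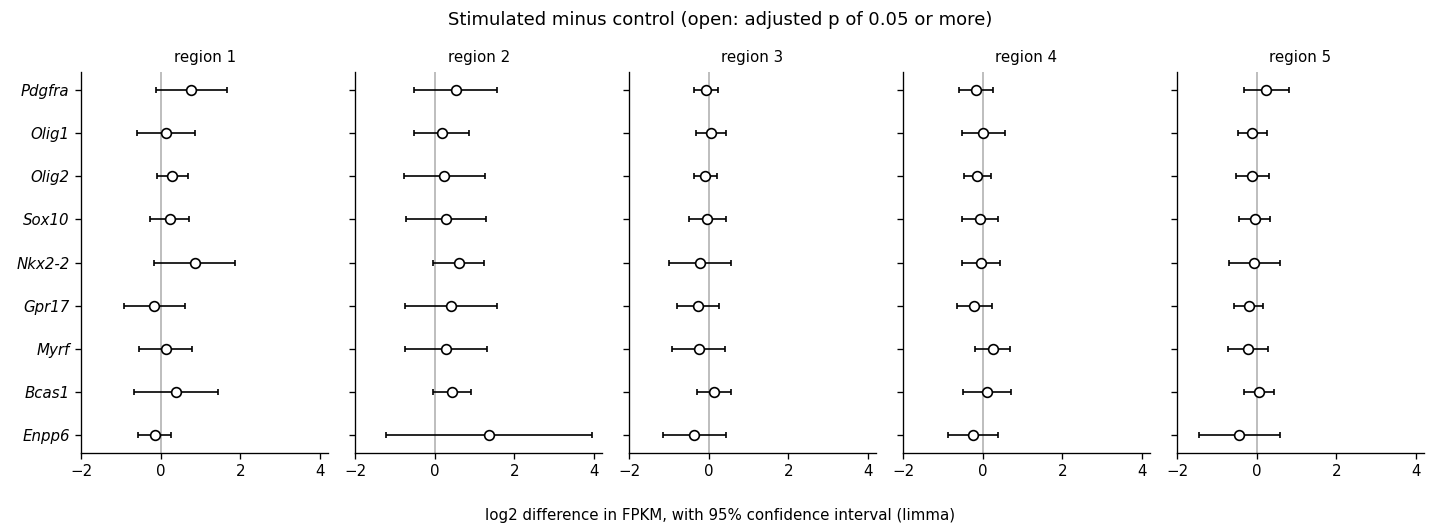
Log2 difference in FPKM between stimulated and control animals (x axis, 2 against 2 libraries) of each gene (y axis) in regions 1 to 5, with 95% confidence intervals from limma. Every symbol is open, as no adjusted p was under 0.05, and the widest interval is that of Enpp6 in region 2, from -1.23 to 3.96.

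The effect of stimulation was also compared between the hemispheres within animals, as the difference of log2 FPKM between regions 1 and 2. None of the 9 was called by limma and 0 had an unadjusted p under 0.05, which 3.78% of all genes had. The largest difference was that of Enpp6 (-1.52, SE 0.88, adjusted p = 0.884), whose region 2 value in stimulated animal 2 was 6.54 FPKM against 1.40 FPKM in stimulated animal 1. For Pdgfra the difference was 0.24 (SE 0.16, adjusted p = 0.884), with a 95% interval from -0.19 to 0.67. None of the 12 other gene lists held a gene called for stimulation in any region.

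The 9 genes varied together over the 20 libraries. Over their 36 pairs the Pearson correlation of log2 FPKM ranged from 0.50 to 0.99 with a median of 0.92, and after each region's mean was taken off it ranged from 0.16 to 0.91 with a median of 0.60. Libraries of 1 animal and 1 region share tissue, depth and composition, so these values are descriptions with no test. Over all libraries the gene most like Sox10 was Mag (r = 0.997), a myelin adhesion protein, that most like Olig2 was Sox10 (0.993), and that most like Bcas1 was Mobp (0.996), a myelin protein. Enpp6 was closest to Adamts4 (0.987), Olig1 to Tprn (0.989), Myrf to Plekhg1 (0.986), Nkx2-2 to Lrch1 (0.980), Pdgfra to Vasp (0.955) and Gpr17 to Sh3bp4 (0.893). For the mean of the 9 genes the closest were Gab1, Cldn11, Llgl1, Cers2 and Adamts4 (0.992 to 0.993).

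With the region means taken off, the closest genes differed from member to member. Sox10 was closest to Ddr1 (0.987) and Mag (0.959), and Bcas1 to Mobp (0.937). Pdgfra was closest to Serpinh1, a collagen chaperone (0.975), followed by Ifnar2 (0.971) and Ehd4 (0.966). Gpr17 was closest to Gamt (0.897), Lcat (0.897) and P2ry12, a receptor of microglia (0.892), and Enpp6 to Frmd4a (0.935), Nfasc (0.926) and Cxcl10 (0.921). Olig1 was closest to S1pr5 (0.952), Myrf to Sox9 (0.958) and Nkx2-2 to Clec2j (0.910). For the mean of the 9 genes the closest included Ddr1 (0.972), Mag (0.963), Gna12 and Ugt8.

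Reads of overlapping genes could add to some of these values, as a strand setting for the counting is not given in the sources used here. In the RefSeq annotation Gpr17 overlaps Lims2, which was listed at 1.08 to 1.71 FPKM in white matter and 1.84 to 4.90 FPKM in the cord, far below Gpr17. Enpp6 overlaps LOC103693959, which was at most 1.18 FPKM. Bcas1 overlaps LOC120101805 and Rps23-ps5, which were not analysed here.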

How the data were processed

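Total RNA of 20 libraries was measured as FPKM, which the authors computed and deposited as 1 table for the series. Per the submitters' processing notes, FastQC, MultiQC 1.6, TopHat2 2.1.0 and Cufflinks 2.2.1 were used with the Rnor6 genome build. The annotation version and the strand setting are not given in the sources used here. No counts were used, so the depth behind a gene's value is unknown and no counting interval is given.

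Groups, animals and regions came from the sample labels, and 0 columns lacked a sample. FPKM values were floored at 0.1 and taken to log2, genes with at least 1 FPKM in any library were kept (15210 of 30443, 50.0%), and no scaling between libraries was added. Regions were compared with limma 3.58.1 in R 4.3.3 (1 mean per region, all 20 libraries, eBayes with trend), stimulation with limma within each region (4 libraries), and its difference between regions 1 and 2 on within-animal differences. P-values were adjusted over all genes by the Benjamini-Hochberg method with a threshold of 0.05. Ratios between genes were tested by exact permutation (Python 3.11.15, numpy 2.4.6). The fits were tested on simulated data with independent noise in each library. That simulation held no variation shared by the libraries of an animal, so it cannot show how such variation affects the fits.

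The members and gene lists were chosen with earlier results of these data known. Text names all 9 members, the 3 genes most like each one and the 5 most like their mean among genes with a mean of at least 1 FPKM, up to 2 called genes in each direction from each lineage list, and Prx, Col1a1 and Dcn. Some genes that this rule names are not reported here. Other cell types are described by counts, beside a check of Slc17a7 and Mbp. Cspg4 stands in both the progenitor and the pericyte list, Sox9 in both the regulator and the astrocyte list, and Prrx1 in both the regulator and the fibroblast list.

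Libraries of different regions came from the same 4 animals. Their deviations from the region means, taken over control and stimulated animals together, correlated at 0.41 to 0.77 between regions 1 and 2. The values were 0.14 to 0.26 between regions 3 and 4, -0.09 to 0.11 between regions 4 and 5 and 0.02 to 0.18 between regions 3 and 5. A stimulation difference shared by 2 regions stays in these values. A fit with the animal as a block was therefore an alternative. The other alternatives were log2(FPKM + 1), no filter, a filter on 2 libraries, quantile and upper-quartile scaling, eBayes without trend, 10 group means, a single model of all libraries, a replicate block and leaving out each animal. Promoter sequences came from RefSeq (GRCr8), whose build differs from that of the table, and were used for their letters only.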

Additional observations from a re-analysis of the deposited data

Results flagged for a closer look

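Within the 4 libraries of a region, a value far from the other 3 was looked for by Dixon's ratio in 45 sets, 9 genes in 5 regions, and 6 passed. Chance gives about 1 in 20 for independent sets of normally distributed values. These 45 sets share the same 20 libraries and their genes vary together, so the count of 6 cannot be set against that rate. Of these, 3 were the region 2 library of stimulated animal 2, for Pdgfra (14.5 FPKM), Gpr17 (15.8 FPKM) and Enpp6 (6.54 FPKM). That library was the highest of region 2 for every gene but Bcas1. Its summed FPKM over all genes was 234473, against 191481 to 216645 in the other region 2 libraries. The region 1 library of stimulated animal 1 was the highest for Sox10 (10.5 FPKM) and Bcas1 (78.2 FPKM), and the rostral cord library of control animal 1 was the highest for Myrf (19.9 FPKM).

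The Olig2 differences between stimulated and control libraries had opposite signs in 2 regions, and neither was called by limma (adjusted p = 0.712 beneath the electrode and 1 at the lesion). Its log2 difference was 0.29 beneath the electrode, where both stimulated libraries were above both controls, and -0.14 at the lesion, where both were below. Such a separation was met by 21.2% of all genes tested beneath the electrode and by 7.69% at the lesion. This difference between the regions was not tested.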

How the results depend on the processing

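With 2 animals a group and no counts, small differences could not be detected. Each of the 9 genes kept its direction in every alternative for white matter against cord and for region 1 against region 2. The number called lower in white matter stayed between 7 and 9. The number called higher in region 1 was 6, ranged from 5 to 7 under other filters, scalings and the animal as a replicate block, and ranged from 0 to 8 when 1 animal was left out. It was 0 in all alternatives for the 3 comparisons within the cord and for stimulation in each region.

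Control and stimulated animals share replicate numbers but are different animals, and deviations of same-numbered libraries correlated at -0.21, -0.10, -0.11, 0.32 and -0.16 in regions 1 to 5. A replicate block called 0 of the 9 genes in each region. Over all genes it called 0 in regions 1 to 4 and 443 in region 5, against 3 without it. Leaving out 1 animal from a stimulation comparison leaves 1 library in an arm, which is then assumed to vary like the others.

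Counts over all genes moved more. Region 1 against region 2 had 1310 calls (26 to 3674 over the alternatives), lesion against rostral cord 2984 (523 to 4909), lesion against caudal cord 1216 (5 to 1966) and caudal against rostral cord 657 (54 to 1616). White matter against cord had 10977 (9474 to 12466). For stimulation the ranges were 0 to 228, 0 to 548, 0 to 3, 0 to 140 and 0 to 443 in regions 1 to 5, and 0 to 113 for its difference between the hemispheres. The lowest count for region 1 against region 2 was that without stimulated animal 1.

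Quantile scaling moved the median log2 difference of all genes between white matter and cord from -0.18 to -0.04 and that of the 9 genes from -1.68 to -1.58. The calls over all genes split into 1043 higher and 267 lower for region 1 against region 2, and into 943 and 841 with quantile and 1316 and 931 with upper-quartile scaling. The splits were 142 and 1074, then 195 and 275, then 328 and 299 for lesion against caudal cord, and 422 and 235, then 435 and 674, then 419 and 750 for caudal against rostral cord. For white matter against cord they were 3808 and 7169, then 5054 and 6018, then 4706 and 6607, and for lesion against rostral cord 1031 and 1953, then 1925 and 2917, then 2116 and 2487. Between lesion and caudal cord the median of the 9 genes turned from -0.07 to 0.10 and 0.09, with 0 called. No called gene of the other lists changed its sign under either scaling.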
